A study of Mus musculus with 23 samples.

Results

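Transcripts of the tumour necrosis factor (TNF) ligand and receptor superfamily were examined in 23 mouse mammary carcinomas, together with genes named for their induction by TNF. Members were the panel genes whose symbol is Tnf, Lta, Ltb, Ltbr, Fas or Fasl or starts with Tnfsf, Tnfrsf, Tnfaip or Eda, which gave 36 of 3826 genes. They comprised 15 ligands, 19 receptors and 2 TNF-induced genes. The symbol rule misses Cd40, Cd40lg, Cd27, Cd70 and Ngfr, superfamily genes with other names, and takes in Tnfaip3 and Tnfaip8, which encode neither ligands nor receptors.

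Tumours were induced in mice with doxycycline from 6 weeks of age, and animals with established tumours were randomized. The labels name neither strain nor the doxycycline-driven transgene. The control group (11 tumours) received vehicle and the abemaciclib group (12 tumours) received 90 mg/kg of abemaciclib, which inhibits the cell cycle kinases CDK4 and CDK6, by daily gavage, and tissue was frozen after 12 doses. RNA was measured with a targeted panel in which 1 amplicon of about 110 bp stands for each gene. Amplicons differ in efficiency, so levels are compared between tumours and not between genes.

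Superfamily ligands are made mostly by leukocytes as membrane proteins that can be shed, and they assemble receptors at the surface of neighbouring cells. Receptors with a death domain, such as those for TNF, FAS ligand and TRAIL, can start apoptosis through FADD and caspase 8, while most others recruit TRAF adaptors and switch on the NF-kappaB factors. In the mammary gland the family is best known for RANK ligand and its receptor RANK, which carry the progesterone signal to epithelial progenitors. In tumours several members act as costimulatory receptors of T cells.

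The upstream sequences of 4 members are shown as background: the 3 with an unadjusted p under 0.05 (Tnfrsf1b, Tnfrsf14 and Tnfsf10) and Tnfrsf9, whose level followed cell division genes in the abemaciclib group. Each gives the 250 bases before a RefSeq start, 5′ to 3′ on the gene's strand, from RefSeq promoters of build GRCm38.p6. RefSeq starts can differ from GENCODE gene positions. By the latter, the windows of Tnfrsf14 and Tnfrsf9 lie inside the gene, and that of Tnfsf10 reaches past the gene's start. Capitals mark matches, on either strand, to the interferon-stimulated response element core (ISRE, the letters GAAA and GAAA with any 2 bases between them), to the gamma-activated sequence core (GAS, TTCNNNGAA) or to the kappaB consensus.
Tnfrsf1b (chr4:145246871-145247120, minus strand): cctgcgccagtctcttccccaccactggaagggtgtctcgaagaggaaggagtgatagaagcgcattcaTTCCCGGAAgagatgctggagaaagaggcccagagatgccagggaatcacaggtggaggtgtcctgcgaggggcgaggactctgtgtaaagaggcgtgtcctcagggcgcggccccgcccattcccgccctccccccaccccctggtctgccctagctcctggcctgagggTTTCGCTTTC
Tnfrsf14 (chr4:154928078-154928327, minus strand): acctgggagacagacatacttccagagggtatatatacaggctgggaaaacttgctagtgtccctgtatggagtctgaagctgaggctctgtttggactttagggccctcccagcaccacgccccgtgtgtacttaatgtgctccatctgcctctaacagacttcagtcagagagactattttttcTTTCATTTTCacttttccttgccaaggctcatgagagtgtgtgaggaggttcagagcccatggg
Tnfsf10 (chr3:27316827-27317076, plus strand): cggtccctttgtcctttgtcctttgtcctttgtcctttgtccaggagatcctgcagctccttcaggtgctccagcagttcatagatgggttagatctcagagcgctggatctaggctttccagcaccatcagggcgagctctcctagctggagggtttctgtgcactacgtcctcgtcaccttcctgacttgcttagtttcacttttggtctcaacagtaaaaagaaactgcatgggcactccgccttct
Tnfrsf9 (chr4:150927749-150927998, plus strand, the downstream of its listed starts): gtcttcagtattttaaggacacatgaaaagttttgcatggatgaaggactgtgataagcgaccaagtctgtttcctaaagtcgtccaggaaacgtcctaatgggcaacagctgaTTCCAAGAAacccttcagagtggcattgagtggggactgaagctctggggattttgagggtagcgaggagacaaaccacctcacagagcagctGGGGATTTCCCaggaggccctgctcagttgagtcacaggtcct
Tnfrsf1b held an ISRE core starting at base -10 from the start and a GAS core at -181. Tnfrsf14 held an ISRE core at -64. The shown Tnfrsf9 window held overlapping kappaB matches at -43 and -42 and a GAS core at -136, and the window of its other start held none of these. In Tnfsf10 none of these letters occurred in the window. The same held for Tnfsf13, Tnfrsf11a and Tnfrsf19, which also ran with or against cell division genes and are not shown. Tnfrsf10b, Tnfsf9 and Tnfsf12 did so too but had no entry among these promoters, so their sequences were not searched. A relation of matches to levels was not tested.

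Of the members, 30 had an entry in that promoter table, with 35 starts. An ISRE core occurred before 4 of the 35 member starts (11.4%), against 2.98% of all 32851 starts in the table. A kappaB match also occurred before 4 of 35 (11.4%), against 3.9%, and a GAS core before 8 of 35 (22.9%), against 7.02%. The table was not limited to panel genes, and some members hold several of the starts. Whether the shares differ was not tested. Besides Tnfrsf9, the kappaB matches were in Ltb, Tnfaip3 and Tnfrsf8. These are matches of letters, and no binding was measured.

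By position the members fall partly into clusters. Tnf (chromosome 17, 35199381 to 35202007, mm10), Lta (35203165 to 35205351) and Ltb (35194439 to 35196320) are neighbours within the major histocompatibility complex. On chromosome 4 lie the receptor genes Tnfrsf1b (145213463 to 145246870), Tnfrsf8 (145267137 to 145315164), Tnfrsf9 (150914562 to 150946102), Tnfrsf25 (152115934 to 152120119), Tnfrsf14 (154921933 to 154928563), Tnfrsf4 (156013843 to 156016612) and Tnfrsf18 (156026164 to 156028895). Tnfsf13 (chromosome 11, 69682846 to 69685784) and Tnfsf12 (69686250 to 69695849) adjoin on the same strand, and with unknown amplicon positions reads of a transcript spanning both could not be assigned to either.

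Library totals ranged from 3044380 to 4492736 counts among control tumours and from 2756919 to 4990391 among treated ones. Of 10 markers of mammary epithelium, 9 were on the panel and all of these passed the filter, with a summed level of 6654 to 12441 CPM in control and 5448 to 19650.4 CPM with abemaciclib (CPM, counts scaled to library size after TMM normalization). Of 9 T cell markers on the panel 5 passed the filter, and the summed level of all 9 was 16.9 to 72.9 CPM in control and 19.7 to 102 CPM with abemaciclib. In bulk tissue, fewer cells of a type and less RNA per cell cannot be told apart.

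Treated and vehicle tumours were compared to ask which members differ after treatment of established tumours. None passed, by edgeR's quasi-likelihood test, an adjusted p of 0.05 over all 2925 genes tested, where the percentage of all genes called was 0. At an unadjusted p under 0.05 there were 3 of 23 tested members, all higher with abemaciclib, while 13.4% of all tested genes had such a p (7.59% higher and 5.81% lower). The members' share was thus close to that of the panel. DESeq2 called 0 members (2.05% of all genes), and limma-voom with quality weights called 1, Tnfrsf1b (4.34% of all genes). Log2 fold changes were positive in 14 of 23 members, against 51.1% of all genes, with a median of 0.06 against 0.01. Scaling to library totals moved the median of all genes to -0.12 and that of the members to -0.06, with 6 of 23 positive against 28.8% of all genes.

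**Figure D1:**
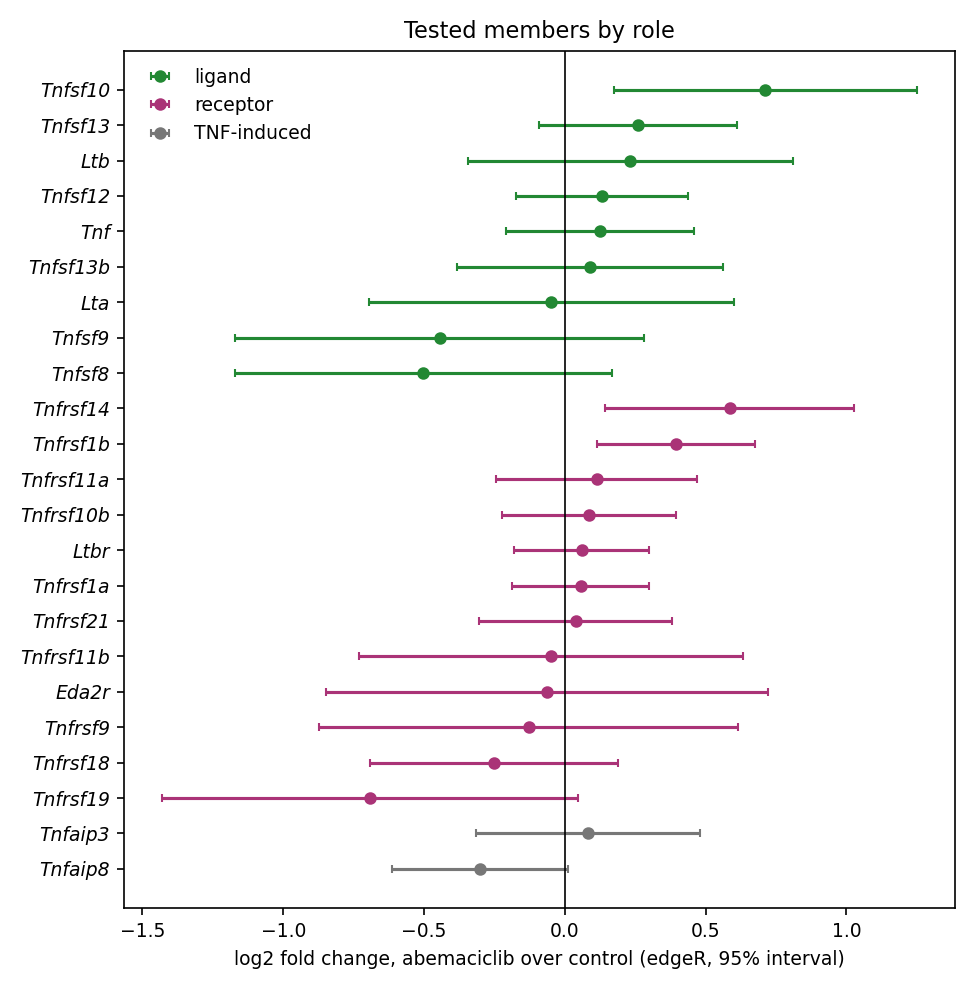
Log2 fold change of abemaciclib over control for the 23 tested members, grouped by role (colour), with 95% intervals from edgeR. Tnfsf10, Tnfrsf14 and Tnfrsf1b have intervals above 0, and the interval of every other member includes 0.

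Among the ligands, 9 of 15 passed the filter on low counts, 6 with positive and 3 with negative log2 fold changes. Tnfsf10 encodes TRAIL, a ligand that triggers apoptosis through death receptors and is known as an interferon-induced gene. Its lowest, median and highest levels were 12.0, 28.2 and 47.5 CPM in control and 9.41, 44.6 and 103 CPM with abemaciclib. In the treated group 11 of 12 tumours exceeded the control median and 3 exceeded every control tumour, while tumour 2 lay below every control tumour. edgeR put the log2 fold change at 0.71 with an SE of 0.262 (adjusted p = 0.206). Abemaciclib tumour 10 had the highest value, and without abemaciclib tumours 3 and 10 edgeR gave 0.53 (adjusted p = 0.270).

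Tnf, the founding cytokine of the family, ranged over 9.52, 12.6 and 17.4 CPM in control and 9.22, 14.1 and 22.2 CPM with abemaciclib (lowest, median, highest). The groups overlapped, with 2 treated tumours above and 2 below every control tumour, and edgeR put the log2 fold change at 0.12 (SE 0.162, from -0.21 to 0.46 at 95%, adjusted p = 0.782). Its neighbour Ltb, a membrane subunit of lymphotoxin, was at 1.56, 5.51 and 8.18 CPM in control and 1.28, 6.09 and 10.8 CPM with abemaciclib. The Ltb value from edgeR was 0.23 on the log2 scale (SE 0.280, adjusted p = 0.752). Lta, the soluble lymphotoxin, rested on 3 to 31 counts per tumour and was at 0.869, 2.82 and 6.35 CPM in control and 1.02, 2.93 and 5.94 CPM with abemaciclib. On the log2 scale Lta was at -0.05 by edgeR (SE 0.315, adjusted p = 0.970) and at 0.11 by limma-voom.

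Tnfsf12 encodes TWEAK, a cytokine of tissue repair, and was at 71.2, 111 and 171 CPM in control and 66.8, 121 and 161 CPM with abemaciclib. The groups overlapped, and edgeR gave 0.13 on the log2 scale (SE 0.149, adjusted p = 0.742). Tnfsf13, which encodes the plasma cell survival factor APRIL, was at 50.9, 89.2 and 129 CPM in control and 54.8, 112 and 157 CPM with abemaciclib. It exceeded the control median in 8 of 12 treated tumours, and edgeR gave 0.26 (SE 0.171, adjusted p = 0.546). Tnfsf13b, which encodes the B cell survival factor BAFF, was at 4.04, 6.05 and 10.2 CPM against 2.14, 6.61 and 12.1 CPM, or 0.09 on the log2 scale (SE 0.229, adjusted p = 0.907 by edgeR).

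The remaining tested ligands had negative values and overlapping groups. Tnfsf8, the CD30 ligand of activated lymphocytes, stood at -0.50 on the log2 scale (SE 0.324, adjusted p = 0.531 by edgeR), with 9 of 12 treated tumours under the control median. Tnfsf9, the 4-1BB ligand of antigen-presenting cells, stood at -0.44 (SE 0.353, adjusted p = 0.623 by edgeR), with 10 of 12 under it. Tnfsf9 rested on 2 to 23 counts per tumour, near the limit of 3 counts that a count of 0 allows.

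Of 19 receptors, 12 passed the filter, 7 with positive and 5 with negative log2 fold changes. Tnfrsf1b encodes TNFR2, the receptor for TNF on leukocytes and endothelium that lacks a death domain. It was at 99.8, 166 and 228 CPM in control and 114, 227 and 309.9 CPM with abemaciclib. In the treated group 11 of 12 tumours exceeded the control median and 6 exceeded every control tumour. The exception was abemaciclib tumour 9, the library with the fewest counts. Mean levels were 167 ± 37.2 CPM (SD, n = 11) and 219.9 ± 48.3 CPM (SD, n = 12). edgeR put the log2 fold change at 0.40 with an SE of 0.136 (adjusted p = 0.185). The adjusted p was 0.111 by DESeq2 and 0.0130 by limma-voom.

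Tnfrsf1a encodes TNFR1, the widely made death domain receptor for TNF. It was at 127, 237 and 369.8 CPM in control and 213, 236 and 293 CPM with abemaciclib, with 6 of 12 treated tumours over the control median. edgeR gave 0.06 on the log2 scale (SE 0.118, from -0.19 to 0.30 at 95%, adjusted p = 0.884). The difference between the values of both TNF receptors was not tested.

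Tnfrsf14 encodes HVEM, a receptor for LIGHT and BTLA on leukocytes and epithelium. It was at 6.06, 8.20 and 17.9 CPM in control and 5.35, 13.4 and 21.9 CPM with abemaciclib, on 21 to 91 counts. In the treated group 11 of 12 tumours exceeded the control median and 2 exceeded every control tumour. Abemaciclib tumour 2, which was also lowest for Tnfsf10, lay below every control tumour. edgeR put the log2 fold change of Tnfrsf14 at 0.59 (SE 0.215, adjusted p = 0.206).

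**Figure D2:**
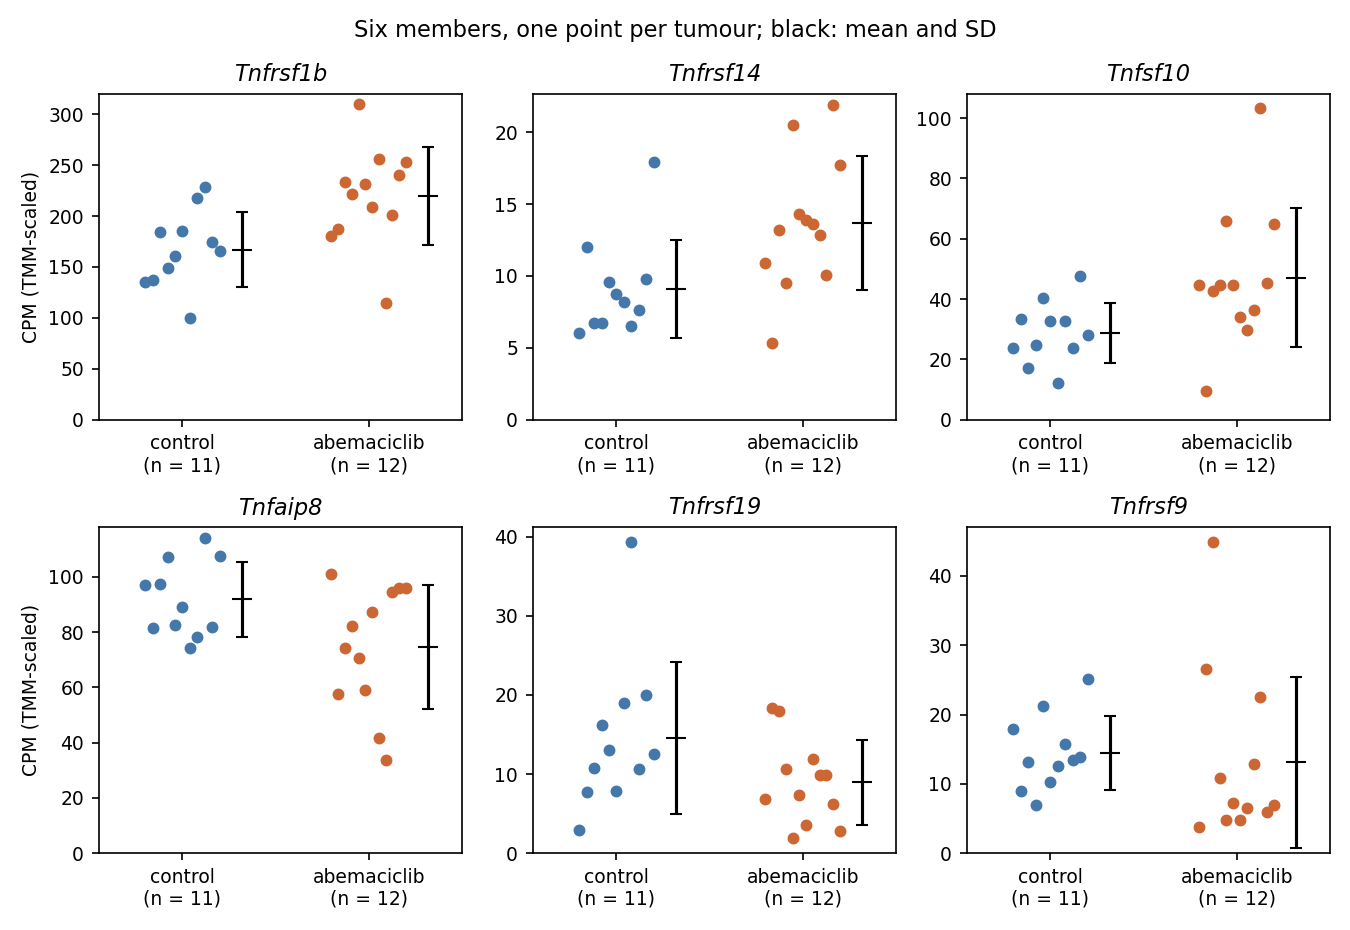
Level of 6 members in every tumour, in CPM from TMM-scaled totals (linear axes from 0), with 1 point per tumour and the mean and SD in black. Tnfrsf1b, Tnfrsf14 and Tnfsf10 are higher in most of the abemaciclib tumours with overlap between the groups, and Tnfrsf9 spans 3.76 to 44.8 CPM within the abemaciclib group.

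Leukocyte markers had positive log2 fold changes and overlapping groups. All 4 passed the filter, with a median of 0.43. By edgeR 3 had an unadjusted p under 0.05 and were higher, against 7.59% of all genes. The summed level of the 4 was 379.8 to 751 CPM in control and 454 to 1466 CPM with abemaciclib. Of 10 macrophage markers, 7 were on the panel and 7 were positive, against 51.1% of all genes. The summed level of these markers was 1379 to 2902 CPM in control and 1806 to 4465 CPM with abemaciclib. By edgeR 0 markers of either list passed the adjusted threshold (lowest adjusted p = 0.0651 and 0.0578). DESeq2 and limma-voom each called 1 leukocyte and 2 macrophage markers, all higher (2.05% and 4.34% of all genes were called in either direction). No marker of either list was at 0 in all tumours. Other immune lists had few tested markers. Their median log2 fold changes were 0.72 for dendritic cells (2 genes), 0.58 for B cells (1) and 0.31 for T cells (5). Those of neutrophils (3), regulatory T cells (1) and natural killer cells (2) were 0.23, -0.18 and -0.38. DESeq2 and limma-voom each called 2 dendritic markers, both higher, and edgeR called 0. The part of any of these cell types in the values of Tnfrsf1b, Tnfrsf14 and Tnfsf10 was not tested. Within groups, the leukocyte score (mean centred log2 CPM of its markers) and Tnfsf10 had a Pearson's r of 0.614 in control (permutation adjusted p = 0.179) and a Spearman's rho of 0.591 (adjusted p = 0.226 by permutation). With abemaciclib r was 0.593 (permutation adjusted p = 0.215) and rho 0.776 (adjusted p = 0.0411). Without abemaciclib tumours 2 and 10, the farthest from the Tnfsf10 median, r was 0.799 (permutation adjusted p = 0.0631). For Tnfrsf1b r was 0.386 in control and 0.484 with abemaciclib, and for Tnfrsf14 it was 0.395 and 0.528. None of these passed by either coefficient (permutation adjusted p from 0.262 to 0.655). Without the 2 tumours farthest from the member's median, r in control and with abemaciclib was -0.0714 and 0.388 for Tnfrsf1b, where the control value turned sign without tumours 7 and 9. For Tnfrsf14 it was 0.323 and 0.342, and for Tnfsf10 in control 0.574.

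Tnfrsf10b, Ltbr and Tnfrsf21 had values near 0 with overlapping groups. Tnfrsf10b, the mouse TRAIL receptor, was at 49.4, 91.5 and 111 CPM in control and 60.0, 86.9 and 118 CPM with abemaciclib, or 0.09 on the log2 scale (SE 0.150, adjusted p = 0.849 by edgeR). Ltbr, the lymphotoxin beta receptor of stroma and epithelium, was at 228, 307 and 418 CPM and 229, 330.2 and 441 CPM. Its edgeR value was 0.06 (SE 0.117, from -0.18 to 0.30 at 95%, adjusted p = 0.873). Tnfrsf21 encodes death receptor 6, and its levels were 450.1, 998 and 1218 CPM in control and 498, 992 and 1349 CPM with abemaciclib, or 0.04 on the log2 scale (SE 0.166, adjusted p = 0.953 by edgeR).

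Tnfrsf11a encodes RANK, the receptor of mammary progenitors and osteoclasts. It was at 58.5, 151 and 194 CPM in control and 97.7, 168 and 242 CPM with abemaciclib, where 3 tumours exceeded every control tumour. edgeR gave 0.11 on the log2 scale (SE 0.173, adjusted p = 0.824). Tnfrsf11b encodes the decoy receptor osteoprotegerin and was at 7.81, 11.6 and 37.1 CPM and 4.81, 13.7 and 31.9 CPM. Its edgeR value was -0.05 (SE 0.331, adjusted p = 0.971). The RANK ligand gene Tnfsf11 was below the filter, with 0 to 5 counts per control tumour and 0 to 10 per treated tumour, and had a count in 5 of 11 and 8 of 12 tumours.

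Negative values were also found for other receptors. Tnfrsf19, which encodes the epithelial and stem cell receptor TROY, stood at -0.69 on the log2 scale (SE 0.359, adjusted p = 0.407 by edgeR), with 10 of 12 treated tumours under the control median. Tnfrsf18, which encodes the T cell costimulator GITR, stood at -0.25 (SE 0.214, adjusted p = 0.648 by edgeR), with 11 of 12 under it. Eda2r, a receptor for an ectodysplasin isoform and a known p53 target, stood at -0.06 (SE 0.381, adjusted p = 0.967 by edgeR).

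Tnfrsf9 encodes 4-1BB, a costimulator induced on activated T and natural killer cells and on endothelium. It was at 6.96, 13.5 and 25.1 CPM in control and 3.76, 7.12 and 44.8 CPM with abemaciclib. The treated tumours lay to both sides of the controls, 6 of 12 below every control tumour and 2 above every control tumour. edgeR gave -0.13 on the log2 scale (SE 0.362, adjusted p = 0.916). The coefficient of variation was 36.8% in control and 93.8% with abemaciclib, a difference that was not tested. Without abemaciclib tumours 3 and 10 edgeR gave -0.68 (adjusted p = 0.243).

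Of the TNF-induced genes, Tnfaip3 encodes A20, the deubiquitinase that limits NF-kappaB signalling. It was at 12.4, 22.1 and 36.9 CPM in control and 14.9, 23.6 and 37.8 CPM with abemaciclib, or 0.08 on the log2 scale (SE 0.193, adjusted p = 0.897 by edgeR). Tnfaip8, a cytosolic protein with a role in phospholipid signalling and cell survival, stood at -0.30 (SE 0.151, adjusted p = 0.398 by edgeR). It spanned 74.3 to 114 CPM in control and 33.6 to 101 CPM with abemaciclib, where 5 tumours lay below every control tumour.

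The 13 members below the filter had at most 13 counts in any tumour. Fas, the death receptor for FAS ligand, had 0 to 3 counts and Fasl 0 to 5. The B lineage receptors Tnfrsf13b, Tnfrsf13c and Tnfrsf17, which bind BAFF or APRIL, summed to 2, 6 and 2 counts in the control group and to 0, 2 and 0 in the abemaciclib group. A count of 0 in a library allows up to 3 counts, or 0.601 to 1.09 CPM of the library totals, for counting error only. The T cell costimulator Tnfrsf4 (OX40) summed to 23 and 20 counts and its ligand Tnfsf4 to 16 and 20. Tnfsf14, the HVEM ligand LIGHT, summed to 15 counts in control, present in 6 of 11 tumours, and 30 with abemaciclib, present in 11 of 12. The others were Tnfrsf8 with 2 and 5 counts, Tnfrsf25 with 18 and 25, Tnfsf15 with 8 and 8, and Tnfsf18 with 40 and 57. With no filter, edgeR's adjusted p for these members ran from 0.451 to 0.973.

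Levels of the members were set against those of cell division genes from tumour to tumour. The dividing cells score averaged the centred log2 CPM of 8 cell cycle genes and spanned -0.35 to 1.91 in control and -2.52 to 1.34 with abemaciclib. Its genes had a median log2 fold change of -1.04, with 8 of 8 negative and 0 passing the adjusted threshold by edgeR. The relation of each of 23 members with this score and with the leukocyte score, in each group, gave 92 relations, and p-values were adjusted over them. With the dividing cells score, 3 positive and 3 negative relations passed in abemaciclib tumours by Pearson's r, and 2 positive and 1 negative in control. By Spearman's rho 5 passed in abemaciclib tumours and 4 in control. Tnfrsf18 passed in control by rho only (0.818, permutation adjusted p = 0.0389), with r of 0.631 (permutation adjusted p = 0.174). How many of all genes would pass this adjusted p was not computed, so a cut on r gives the background. In the abemaciclib group r was 0.8 or more for 3 of 23 members, against 7.3% of all genes, and -0.8 or less for 2, against 5.14% (12.4% together). In control these were 1 of 23 members, against 2.85%, and 0, against 1.51% (4.35% together). The members' share of both signs was thus 4.35% in control, the same as that of the panel. With abemaciclib it was 21.7%, against 12.4%, a difference that was not tested. Member and score come from the same libraries and share their scaling.

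Tnfrsf10b, the TRAIL receptor, had the highest r of the members in abemaciclib tumours, 0.939 (rho 0.937, permutation adjusted p = 0.000920 and 0.00184). Before adjustment the p for this r was the smallest that 100000 permutations can give, so their number limits the value. In control tumours r was 0.766 (rho 0.818, permutation adjusted p = 0.0406 and 0.0389). Without the 2 tumours farthest from its median r was 0.898 in the treated group (permutation adjusted p = 0.0290). In control the relation no longer passed without tumours 1 and 2, with r of 0.572 (permutation adjusted p = 0.446).

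Tnfrsf9 and its ligand Tnfsf9 followed the score in the abemaciclib group. For Tnfrsf9 r was 0.914 (rho 0.944, permutation adjusted p = 0.00184 for both), and 0.968 without tumours 2 and 3. In control r was 0.10 (permutation adjusted p = 0.858). The abemaciclib tumours with the highest scores, 10, 2 and 3, had Tnfrsf9 at 22.5, 26.5 and 44.8 CPM, and those with the lowest scores, 1 and 7, had 3.76 and 4.83 CPM. For Tnfsf9 r was 0.837 in abemaciclib tumours (rho 0.860, permutation adjusted p = 0.0133 and 0.0108) and -0.363 in control. Whether these relations differ between groups was not tested.

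Tnfsf13 and Tnfrsf11a ran the opposite way. For Tnfsf13 r in abemaciclib tumours was -0.896 (rho -0.909, permutation adjusted p = 0.00276 and 0.00337). It was -0.817 without tumours 3 and 10 (permutation adjusted p = 0.0631). In control r was -0.714 (permutation adjusted p = 0.124) and rho -0.891 (adjusted p = 0.0110). For Tnfrsf11a r in abemaciclib tumours was -0.849 (rho -0.846, permutation adjusted p = 0.0133 and 0.0143), or -0.881 without tumours 3 and 9. In control it was -0.781 (permutation adjusted p = 0.0406), or -0.550 without tumours 6 and 8 (adjusted p = 0.464). With CPM from library totals neither passed in abemaciclib tumours, at -0.778 for Tnfsf13 (permutation adjusted p = 0.0520) and -0.723 for Tnfrsf11a (adjusted p = 0.0758). In control r was then -0.471 for Tnfsf13 (permutation adjusted p = 0.300) and -0.622 for Tnfrsf11a (adjusted p = 0.191).

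Relations of 2 other members no longer passed without the 2 farthest tumours. Leaving these out narrowed the member's range, with 9 control or 10 abemaciclib tumours left. A relation lost in this way is not shown to be absent. Tnfsf12, the neighbour of Tnfsf13, had an r of -0.756 in abemaciclib tumours (rho -0.692, permutation adjusted p = 0.0406 and 0.0997) and of -0.477 without tumours 2 and 10 (adjusted p = 0.464). With CPM from library totals r for Tnfsf12 was -0.462 in abemaciclib tumours (permutation adjusted p = 0.300). Tnfrsf19 had an r of 0.919 in control (rho 0.80, permutation adjusted p = 0.00667 and 0.0411), or 0.718 without tumours 1 and 8 (adjusted p = 0.206). With CPM from library totals it was 0.940 (permutation adjusted p = 0.00215). In abemaciclib tumours its r was 0.682 (permutation adjusted p = 0.124).

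**Figure D3:**
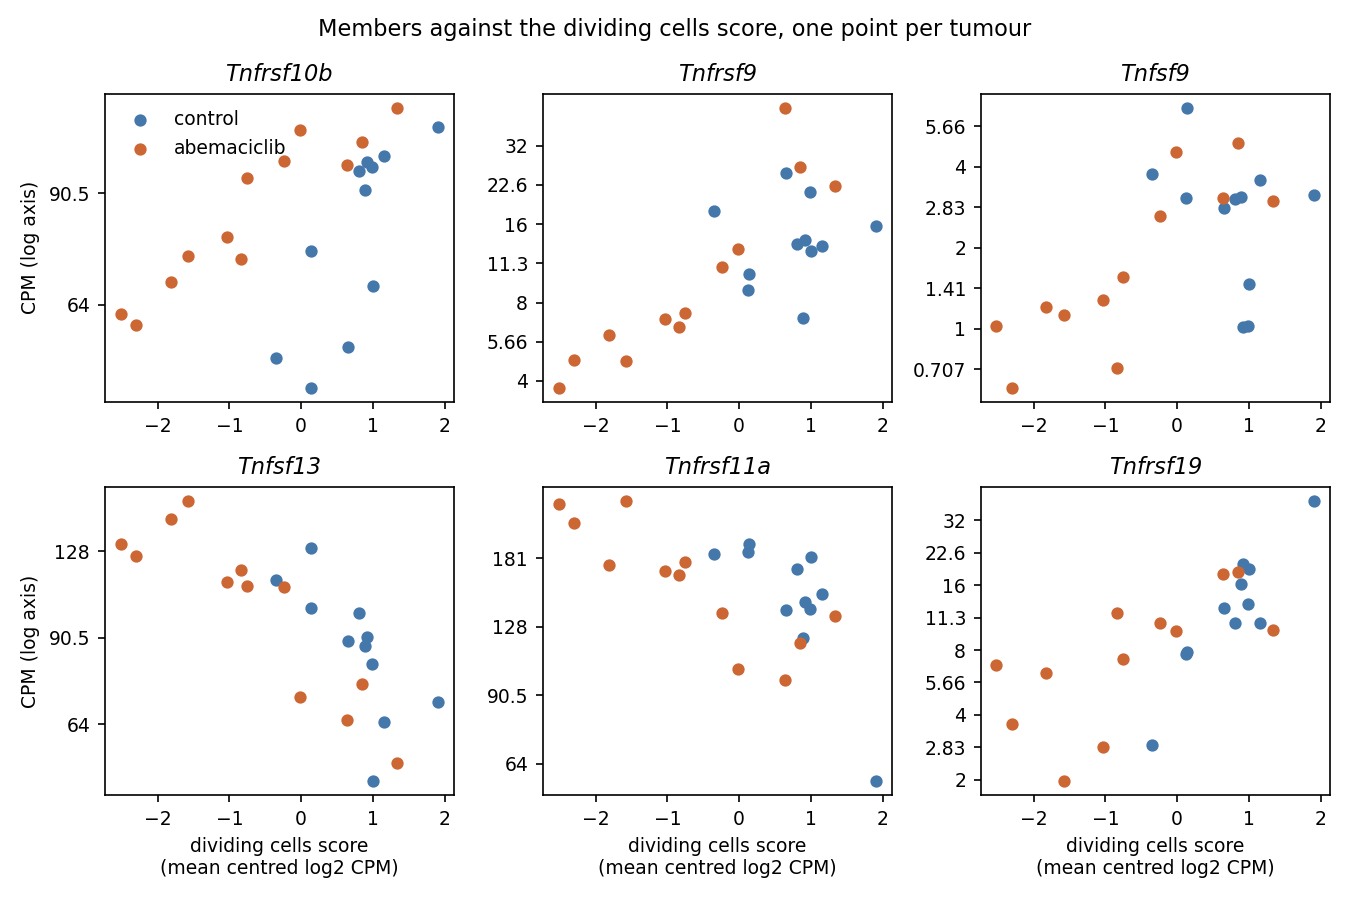
Level of 6 members (CPM, log axis) against the dividing cells score (mean centred log2 CPM of 8 genes), with 1 point per tumour. In abemaciclib tumours Tnfrsf10b, Tnfrsf9 and Tnfsf9 climb with the score (r of 0.939, 0.914 and 0.837) and Tnfsf13 and Tnfrsf11a descend (-0.896 and -0.849).

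Ligands and their receptors were compared across tumours within each group for 21 pairs, of which 5 had both genes above the filter. Of these 10 relations 1 passed, that of Tnfsf9 with Tnfrsf9 in abemaciclib tumours. Its r was 0.822 (rho 0.888, permutation adjusted p = 0.0109 and 0.00240), and 0.854 without tumours 2 and 9. In control tumours r for this pair was -0.314 (permutation adjusted p = 0.663). In abemaciclib tumours both genes also followed the dividing cells score (r of 0.914 for Tnfrsf9 and 0.837 for Tnfsf9), and Tnfsf9 rested on 2 to 23 counts. How often other pairs of genes reach such an r was not computed. Tnf with Tnfrsf1a correlated at 0.191 in control and 0.334 with abemaciclib, and Tnf with Tnfrsf1b 0.469 and 0.131. For Ltb with Ltbr r was 0.287 and 0.341, and for Tnfsf10 with Tnfrsf10b 0.164 and -0.0388.

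**Figure D4:**
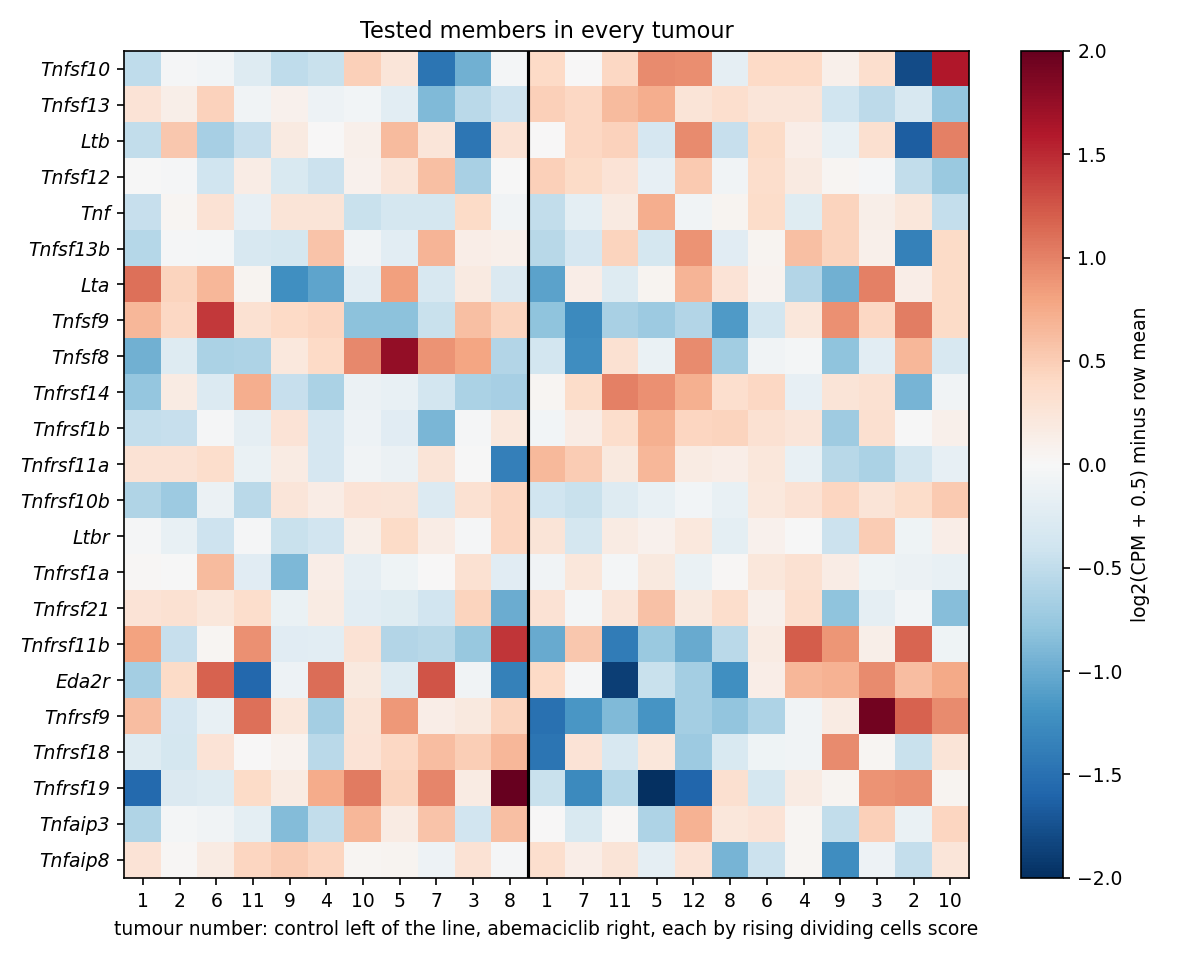
Log2(CPM + 0.5) of the 23 tested members minus each member's mean over tumours (colour), with tumours in columns, control left and abemaciclib right of the line, each ordered by rising dividing cells score. Tnfrsf9 is lowest in the 6 abemaciclib tumours with the lowest scores and highest in abemaciclib tumour 3, and abemaciclib tumour 10 is highest for Tnfsf10.

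Downstream of the receptors, 28 adaptors and kinases were listed, of which 19 were on the panel and tested. By edgeR 0 had an unadjusted p under 0.05, with 9 positive, 10 negative and a median log2 fold change of -0.01. The smallest p-values from edgeR belonged to Chuk, which encodes the kinase IKK-alpha, at -0.23 (SE 0.116, adjusted p = 0.395), to the adaptor Traf1 at -0.53 (SE 0.295, adjusted p = 0.441) and to Tradd, the adaptor of TNFR1, at -0.17 (SE 0.124, adjusted p = 0.591). Of 14 NF-kappaB subunits and inhibitors, 10 were tested, 0 with an unadjusted p under 0.05, with a median of 0.10. The subunit genes Rel at 0.24 (SE 0.163) and Relb at 0.25 (SE 0.171) and the co-regulator Bcl3 at 0.24 (SE 0.195) came first, with adjusted p from 0.558 to 0.628 by edgeR.

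Genes known as targets of TNF and NF-kappaB had mostly positive log2 fold changes. Of 24 tested, 19 were positive, against 51.1% of all genes, and the median log2 fold change was 0.34. By edgeR 8 had an unadjusted p under 0.05, all higher, against 7.59% of all genes. By edgeR 0 passed the adjusted threshold, while DESeq2 called 4 and limma-voom 5, all higher. Of all genes these called 2.05% and 4.34% in either direction. The metalloprotease gene Mmp3 was at 1.69 (SE 0.375, adjusted p = 0.0578 by edgeR), the chemokine gene Cxcl2 at 1.03 (SE 0.264, adjusted p = 0.0823) and the adhesion molecule gene Vcam1 at 0.84 (SE 0.224, adjusted p = 0.0872). For 3 of the 8, abemaciclib tumour 10 was the highest treated tumour, and without abemaciclib tumours 3 and 10 the chemokine genes Cxcl10, Ccl2 and Ccl7 were at 0.0091, 0.29 and 0.11 in place of 2.66, 1.02 and 1.05. The list was drawn up with results of these tumours known. Of 5 superfamily genes with other symbols on the panel 2 were tested, Cd40 at 0.31 (SE 0.460, adjusted p = 0.813 by edgeR) and Ngfr at 0.13 (SE 0.322, adjusted p = 0.907).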

How the data were processed

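Each of the 23 titled tumours counted as 1 replicate. No label says that tumours came from separate animals, so p-values measure the spread between these tumours. The authors deposited raw counts of reads per gene for an Ion AmpliSeq panel, per the labels' protocols. The submitters' processing notes name the build mm10. Which aligner and counter made the table, and where the amplicons lie, is not given in the sources used here.

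Counts were tested with edgeR 4.0.16 in R 4.3.3 (filterByExpr, TMM scaling, quasi-likelihood test, two-sided, Benjamini-Hochberg adjustment over 2925 genes at 0.05). SEs came from the fold change and its F. CPM used TMM-scaled totals, and scores and correlations used log2 CPM with a prior count of 2. Correlation p-values came from 100000 permutations, two-sided. DESeq2 1.42.0, limma-voom (limma 3.58.1) and other scalings, filters and samples were alternatives.

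The members, lists and tests were chosen with earlier results of these data known. Given in full were members with an unadjusted p under 0.05 and, where they passed the filter, 18 genes fixed by name. Of these, Tnfrsf12a, the receptor gene paired with Tnfsf12, was not among the members because no panel gene carried that symbol. Other tested members are given by their fold change, and of each pathway list the 3 genes with the smallest p. Relations with marker scores, and the attention to Tnfrsf9, Tnfsf9, Tnfsf13 and Tnfrsf19 there, were chosen after values were seen. On simulated counts for 2925 genes, 33 of 67 genes changed 1.5-fold and 58 of 67 changed 2-fold were recovered in abemaciclib against control, with 6 of 2725 unchanged genes called. The simulation drew each gene independently with the same change in every treated tumour, which these tumours need not share. Over 253 tumour pairs chi-square per degree of freedom was at least 19.1, so no pair agreed within sampling noise. Positions are 1-based, from GENCODE M21.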

Additional observations from a re-analysis of the deposited data

How the results depend on the processing

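The count of genes called in all was 0 by edgeR, 1 with library totals, 60 by DESeq2's Wald test, 127 by limma-voom and 93 without abemaciclib tumours 3 and 10 (a choice taken from earlier results). It was 0 to 47 when each tumour was left out in turn, with 47 without abemaciclib tumour 10, 30 without 2, 10 without 3 and 9 without control tumour 6. For the members the count was 0 under each of these except limma-voom, where it was 1, and 0 in each of the 23 fits that left out a tumour, with medians of 0.022 to 0.089. For the pathway lists together it was 0 by edgeR, 4 by DESeq2, 5 by limma-voom, 2 without abemaciclib tumours 3 and 10, and 0 to 2 leaving out a tumour. For the dividing cell genes it was 0 by edgeR, 1 by DESeq2, 8 by limma-voom and 8 without those tumours. Members whose sign turned were near 0 and passed no test. With library totals these were Ltbr (-0.084), Tnfaip3 (-0.059), Tnfrsf10b (-0.039), Tnfrsf11a (-0.023), Tnfrsf1a (-0.061), Tnfrsf21 (-0.083), Tnfsf12 (-0.031) and Tnfsf13b (-0.035). Limma-voom turned Lta (0.11), and leaving out abemaciclib tumours 3 and 10 turned Ltbr (-0.011) and Tnfaip3 (-0.0099). Leaving out 1 tumour turned Eda2r (-0.18 to 0.094), Lta (-0.19 to 0.10), Tnfrsf11b (-0.20 to 0.15), Tnfrsf1a (-0.0089 to 0.14), Tnfrsf21 (-0.038 to 0.099) and Tnfsf13b (-0.015 to 0.18). Ligand-receptor correlations that turned were Tnf with Tnfrsf1b in abemaciclib (-0.349) and Tnfsf10 with Tnfrsf10b in control (-0.106) without the 2 farthest tumours, and the latter in abemaciclib with library totals (0.126). Of the reported relations with scores, that of Tnfrsf1b with the leukocyte score in control turned (-0.0714 without the 2 farthest tumours). With library totals, the negative relations with the dividing cells score that had passed by Pearson's r no longer passed, while the positive ones did. The cause was not tested. With a mean count of at least 50, the B cell and natural killer lists kept no gene and gave no value.

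The tumour numbers shared by both groups are not said to pair tumours. Same-numbered tumours correlated over 0.1 in 5 of 11 pairs (-0.43 to 0.45), and 2 of 11 control tumours correlated best with their own number. With the replicate block, over 22 tumours, 0 genes and 0 members were called, the median over members was 0.056, and Eda2r (0.062), Tnfrsf11b (0.014) and Tnfsf13b (-0.056) turned sign. Members below the filter rest on few counts, so no folds are given for them.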
